A study of Mus musculus with 24 samples.

Results

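The genes followed here are 10 genes of the MHC class I antigen presentation pathway, measured in mouse whole blood 24 h after X rays: the heavy chains H2-K1 and H2-D1, B2m, the peptide transporter genes Tap1 and Tap2, Tapbp, the immunoproteasome subunits Psmb8, Psmb9 and Psmb10, and the regulator Nlrc5. They were chosen by the gene name in the array files, and all 10 passed the filter on dim probes, out of 13051 genes tested and 24325 gene symbols on the array. H2-K1, Psmb9 and Nlrc5 each have 2 probes and the other members 1. The brightest probe stands for a gene unless the other one is named. The blood came from 24 male 129S/J mice, 1 mouse per array, by heart puncture into an RNA stabiliser, and globin RNA was depleted. Wild-type mice received a sham exposure of 0 Gy (5 arrays), 6 Gy (5 arrays) or 8.8 Gy (4 arrays). Parp1-/- mice, called knockout below, received a sham exposure of 0 Gy (5 arrays) or 6 Gy (5 arrays). Parp1 makes poly(ADP-ribose) at DNA breaks. Per the series design, 6 Gy in the knockout and 8.8 Gy in wild type are the doses lethal to 50% of mice within 30 days. Ages are not given in the sources used here.

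Class I molecules show short peptides from inside the cell to CD8 T cells and to NK cells. The immunoproteasome, which in leukocytes and after interferon carries Psmb8, Psmb9 and Psmb10 in place of the standard catalytic subunits, cuts proteins into such peptides. The transporter formed by Tap1 and Tap2 moves them into the endoplasmic reticulum, where tapasin (Tapbp) helps to load them onto a heavy chain bound to B2m. Nlrc5 is a transactivator of class I promoters. Leukocytes, lymphocytes among them, express class I strongly.

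Levels are log2 signals minus the 75th percentile of their array, so that 0 is that percentile. They are compared between arrays for 1 probe and never between probes. A gene is said to have risen or fallen if its limma adjusted p over all 13051 genes was under 0.05. No member probe was saturated on any array. Every member was well above background on all 24 arrays except Tap1, which was on 22. The number of arrays limits the precision of all values.

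Several features of the arrays touch all the results. The arrays labelled wild-type 8.8 Gy replicate 2 and knockout 6 Gy replicate 1 had almost the same values: over 10767 probes their log2 levels differed with an SD of 0.167, where the next closest of 276 pairs had 0.262 and the median pair 0.901. Parp1 stood at -1.67 on the array labelled knockout 6 Gy replicate 1, above the -5.01 to -3.45 of that group's other arrays, while replicate 4 of wild-type 8.8 Gy had -3.94 and the rest of that group -1.58 to -1.25. In this Parp1 level both arrays go against their genotype labels. The level did not separate the genotypes fully, as wild-type 6 Gy replicate 2 had -2.33 and knockout sham replicate 1 -2.29. Parp1 was not well above background on wild-type 8.8 Gy replicate 4. All wild-type sham arrays were scanned on day 4 and all irradiated wild-type arrays on day 3, while the knockout sham arrays fell on days 1 and 2. No scan day and no slide held both a sham and an irradiated wild-type array. Knockout sham arrays had 39.0% ± 2.37 (SD, n = 5) of their probes well above background, against group means of 47.3% to 49.4% elsewhere.

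Blood markers moved with the exposures. Of 10 B-cell markers 8 fell in each of the 3 responses, that is, irradiated against sham mice of 1 genotype, and their mean level was between 0.28 and 1.61 on sham arrays and between -1.95 and -0.28 on irradiated arrays. Of 10 T-cell markers 8 fell at 6 Gy in wild type, 9 at 8.8 Gy and 9 in the knockout, with mean levels of 3.13 to 4.39 on sham arrays and 1.30 to 2.87 on irradiated ones. The 4 pan-leukocyte markers ranged from 2.71 to 4.14, none passed the test in these 3 comparisons, and their group means lay between 3.20 and 3.69. Hepatocyte markers, of which 10 of 16 were tested, ranged from -1.83 to 7.27 on wild-type sham arrays and as widely in the other groups, from -1.35 to 6.69. In whole blood, fewer cells of a type and less RNA per cell cannot be told apart.

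The sequences that carry the findings are those of both H2-K1 probes, which gave different results, and stretches upstream of members that moved together or apart. H2-K1 lies on the minus strand of chromosome 17. Its brightest probe, spotted 10 times on each array, spans chr17:34133055-34133114 in mm9. Its first 30 bases are shown here, written 5′ to 3′ on the message strand. This probe holds a stop codon in each reading frame. The other probe, spotted once, is at chr17:34133984-34134043, 870 bases further upstream in the gene, and 2 of its 3 reading frames are open.
H2-K1 brightest probe: tgaatgtaaccttgattgttatcatcttga
H2-K1 other probe: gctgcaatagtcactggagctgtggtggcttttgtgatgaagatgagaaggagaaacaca
Each was compared with 44 other probes of the array whose gene names begin with H2-K, H2-D, H2-L, H2-Q, H2-T, H2-M or H2-B. These names can include genes other than class I heavy chains. The closest to the brightest probe (H2-Q1) matched it at 26 of 60 bases without gaps. The closest to the other probe (H2-T23) matched at 39. Probes were compared with probes and not with whole messages, so binding of other messages was not tested. The probes of Psmb8 (chr17:34337771-34337830, plus strand) and Psmb9 (chr17:34319174-34319233, minus strand) are shown because these genes moved most closely together.
Psmb8 probe: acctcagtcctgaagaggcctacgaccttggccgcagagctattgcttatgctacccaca
Psmb9 probe: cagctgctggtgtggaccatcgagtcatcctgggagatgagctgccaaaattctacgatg

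The bases upstream of the start are from RefSeq, assembly GRCm38.p6, which held 9 windows for 8 members. Windows of 250 bases were searched on both strands for the interferon-stimulated response element core (GAAA, any 2 bases, GAAA), the gamma-activated site TTCNNNGAA, the enhancer A core GGGATTCCC, the X2 motif core TGACG and the CCAAT box. Capitals mark each match to the first 4 of these motifs. The plus-strand H2-D1 window is chr17:35262844-35263093 and the minus-strand H2-K1 window chr17:34000348-34000597.
H2-K1 upstream: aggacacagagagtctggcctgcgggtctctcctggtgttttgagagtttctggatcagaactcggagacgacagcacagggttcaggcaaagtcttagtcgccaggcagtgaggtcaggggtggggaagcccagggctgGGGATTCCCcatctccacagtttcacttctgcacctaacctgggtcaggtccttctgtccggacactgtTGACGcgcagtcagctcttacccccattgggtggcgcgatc
H2-D1 upstream: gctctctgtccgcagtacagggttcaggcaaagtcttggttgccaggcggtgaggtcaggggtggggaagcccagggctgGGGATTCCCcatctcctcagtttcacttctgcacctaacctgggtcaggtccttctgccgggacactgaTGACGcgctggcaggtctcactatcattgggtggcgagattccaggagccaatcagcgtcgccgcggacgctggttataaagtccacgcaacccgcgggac
B2m upstream: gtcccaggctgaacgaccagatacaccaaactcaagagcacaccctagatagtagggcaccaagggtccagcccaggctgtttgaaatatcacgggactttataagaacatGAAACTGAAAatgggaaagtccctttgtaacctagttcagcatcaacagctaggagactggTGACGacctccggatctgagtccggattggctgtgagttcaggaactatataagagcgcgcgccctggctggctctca
Tap1 upstream: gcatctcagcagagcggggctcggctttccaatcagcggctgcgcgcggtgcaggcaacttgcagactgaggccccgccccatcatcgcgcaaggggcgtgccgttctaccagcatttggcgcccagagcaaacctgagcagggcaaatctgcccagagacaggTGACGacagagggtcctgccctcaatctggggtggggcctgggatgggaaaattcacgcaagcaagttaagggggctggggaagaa
Psmb8 upstream: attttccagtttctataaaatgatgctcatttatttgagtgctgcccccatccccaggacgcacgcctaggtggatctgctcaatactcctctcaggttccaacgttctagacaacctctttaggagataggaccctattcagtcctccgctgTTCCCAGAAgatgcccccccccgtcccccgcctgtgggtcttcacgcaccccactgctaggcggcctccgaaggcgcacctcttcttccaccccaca
The B2m window is chr2:122147437-122147686, that of Tap1 chr17:34187306-34187555 and that of Psmb8 chr17:34197945-34198194, all on the plus strand. The windows of H2-K1 and H2-D1 were equal at 166 of 190 bases (87.4%) when set against each other at the enhancer A core. Both hold GGGATTCCC, which 0.301% of 32851 windows hold. The interferon-stimulated core was found upstream of B2m alone among the 8 members (2.98% of all windows), and the gamma-activated site upstream of Psmb8 alone (7.02%). The X2 core was found upstream of H2-K1, H2-D1, B2m, Tap1 and Psmb9 (17.8% of all windows) and the CCAAT box upstream of these 5 and Tapbp (33.8%). The Tap1 window shares 225 of its bases with that of Psmb9, which is read the other way from the far end. The X2 core and the CCAAT box of Tap1 are the same sites as those of Psmb9, so they are counted once for each gene. Only exact matches were counted, so a window without one may still hold a looser form of a motif. These matches are a description of letters and no evidence of binding.

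H2-K1 fell after irradiation in wild type, and it was the only member that passed the test in any of the 8 comparisons made. H2-K1 encodes a classical heavy chain that binds peptide. Its level was 6.97, 7.16, 7.08, 7.22 and 6.75 on the wild-type sham arrays and 6.35, 5.74, 6.00, 6.21 and 6.42 at 6 Gy. At 8.8 Gy it was 6.21, 6.09, 6.33 and 6.24. Every irradiated wild-type array lay below every sham array. The log2 difference at 6 Gy was -0.89 ± 0.24 (SE; limma adjusted p = 0.0102), a level 1.86-fold lower. At 8.8 Gy it was -0.82 ± 0.25 (limma adjusted p = 0.0303), or 1.76-fold lower, with the same 5 sham arrays. So 1 of 10 members was called lower in each of these comparisons, where 10.7% and 8.87% of all genes were. The 8.8 Gy call did not hold without both nearly equal arrays (-0.78, adjusted p = 0.0973), nor without wild-type 8.8 Gy replicate 4 (-0.83, adjusted p = 0.0579), and was lost on leaving out any 1 of 6 arrays.

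With scan day as a fixed block the H2-K1 difference was -0.66 at 6 Gy (limma adjusted p = 0.846) and -0.59 at 8.8 Gy (adjusted p = 0.986), and with slide as a fixed block -0.64 (adjusted p = 0.740) and -0.46 (adjusted p = 0.842). The direction was the same and the calls were lost. No block held both sham and irradiated wild-type arrays, so these estimates run only through knockout 6 Gy arrays. Of those, replicate 4 alone shared scan day 4 with the wild-type sham arrays, and slide 6 with sham replicate 1. The blocked estimates, and their direction, therefore depend on that array. Quantile normalisation also ended both calls (-0.58, adjusted p = 0.113, and -0.46, adjusted p = 0.298), as did the mean over both H2-K1 probes (-0.48, adjusted p = 0.0994, and -0.45, adjusted p = 0.202). Normexp background correction ended the 6 Gy call (-0.77, adjusted p = 0.166). The 8.8 Gy call was also lost with no filter on dim probes (-0.82, adjusted p = 0.0764) and with slide as a random block (-0.78, adjusted p = 0.067). The B-cell and T-cell markers named above fell in the same comparisons, and their part in the H2-K1 difference was not tested. With the hepatocyte marker score as a covariate H2-K1 was called in both wild-type comparisons.

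In the knockout H2-K1 did not pass the test, and no member did, where 22.9% of all genes were called. The sham arrays stood at 6.37, 6.90, 5.29, 6.69 and 6.77 and the 6 Gy arrays at 6.15, 6.23, 5.75, 6.28 and 6.27. Sham replicate 3 was the lowest of all 24 arrays, and the other 4 sham arrays lay above every irradiated array of the genotype. The difference was -0.27 ± 0.24 (limma adjusted p = 0.436), and without sham replicate 3 it was -0.55 (adjusted p = 0.0308). Without that array and the array labelled knockout 6 Gy replicate 1 it was -0.55 (adjusted p = 0.0499). Sham replicate 3 also had the highest mean level of the red-cell precursor markers, 5.70, where the other arrays of its group had 3.41 to 4.48. On slide 9, which held 2 sham arrays and 1 irradiated knockout array, H2-K1 averaged 6.63 and 6.27.

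**Figure D1:**
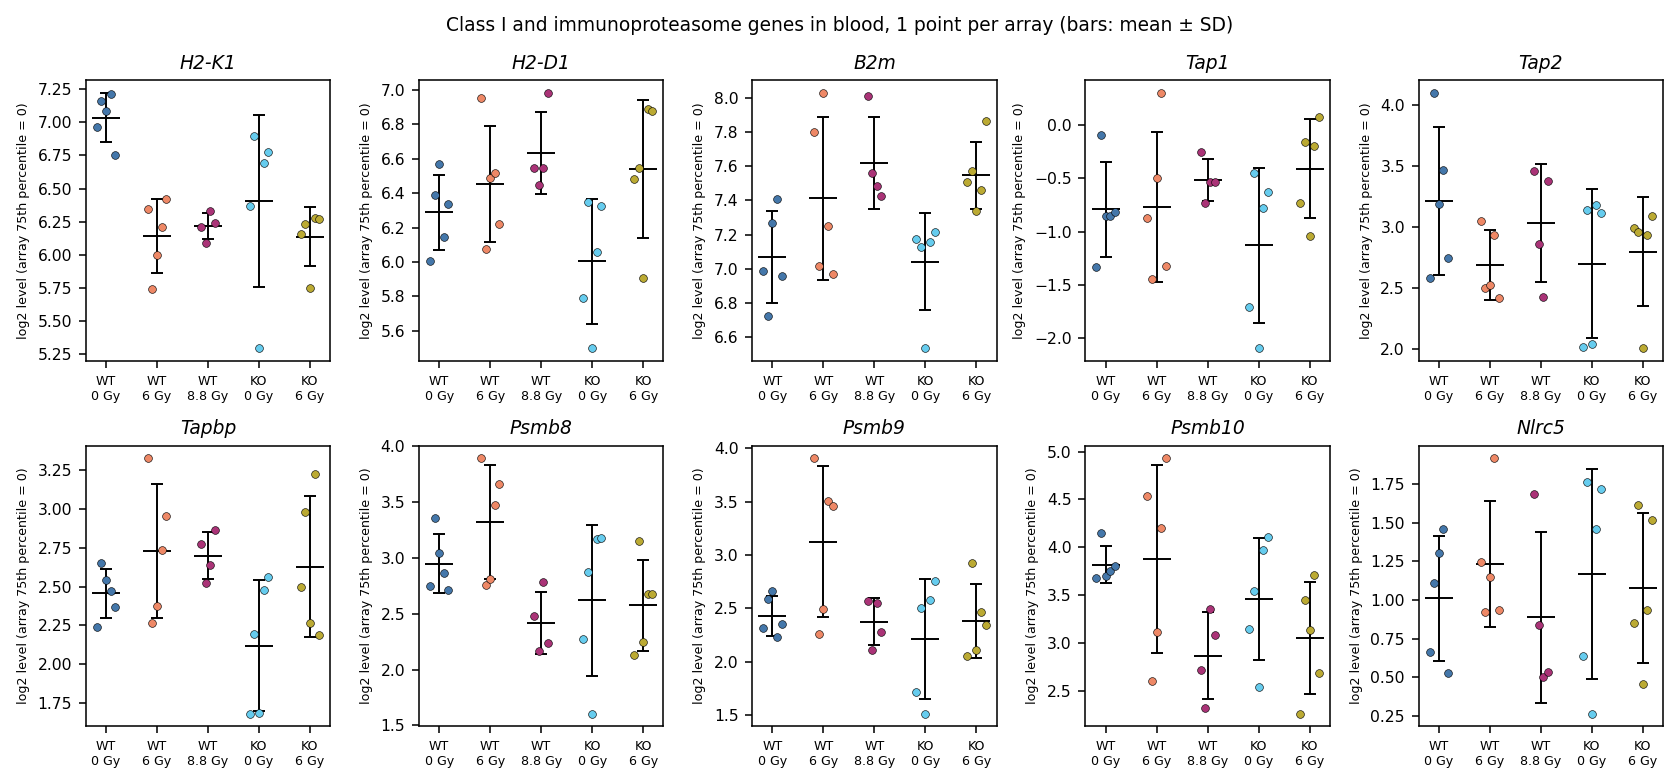
Log2 level of each member on each of the 24 arrays (vertical axis, 0 is the array's 75th percentile) by group, with the group mean and SD as bars. H2-K1 lies between 6.75 and 7.22 on wild-type sham arrays and between 5.74 and 6.42 on all 14 irradiated arrays. Knockout sham arrays, at 5.29 to 6.90, overlap the irradiated ones. The groups of most other members overlap.

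The other H2-K1 probe did not give this fall. It read 5.29, 5.73, 5.19, 5.37 and 5.27 on wild-type sham arrays and 5.51, 4.50, 5.29, 5.73 and 5.50 at 6 Gy. The 4 arrays at 8.8 Gy read 5.22, 5.11, 5.43 and 5.40. All 3 groups overlapped. Its differences were -0.06 at 6 Gy (limma adjusted p = 0.858), -0.08 at 8.8 Gy (adjusted p = 0.843) and 0.28 in the knockout, none of which passed.

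Both probes were then set against each other within each array, a measure chosen after their values were seen. The brightest probe exceeded the other by 1.67 ± 0.21 (SD, n = 5) on wild-type sham arrays, by 0.84 ± 0.28 (n = 5) at 6 Gy and by 0.93 ± 0.07 (n = 4) at 8.8 Gy. In the knockout the excess was 1.31 ± 0.33 (n = 5) on sham arrays and 0.76 ± 0.18 (n = 5) at 6 Gy. No irradiated wild-type array, at 0.48 to 1.24, reached the lowest sham array at 1.43. The excess changed after irradiation by -0.83 at 6 Gy (exact permutation test, two-sided p = 0.00794, the smallest that 5 against 5 arrays allow), by -0.74 at 8.8 Gy (exact p = 0.0159, the smallest for 4 against 5) and by -0.55 in the knockout (exact p = 0.0317). Adjusted over 10 such tests on H2-K1 and Nlrc5, these exact p-values were 0.0794, 0.0794 and 0.106 and did not pass.

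Across all 2780 genes with 2 tested probes, limma on the same within-array difference called H2-K1 in all 3 responses. The adjusted p was 0.00154 at 6 Gy, 0.0225 at 8.8 Gy and 0.0341 in the knockout. It also called 15.7%, 2.91% and 9.24% of these genes, so that probes of 1 gene diverged often at 6 Gy. The 10 spots of the brightest probe varied by a median SD of 0.0727 within an array. Which transcripts each probe reads was not tested, and the H2-K1 fall holds for 1 probe of the gene.

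**Figure D2:**
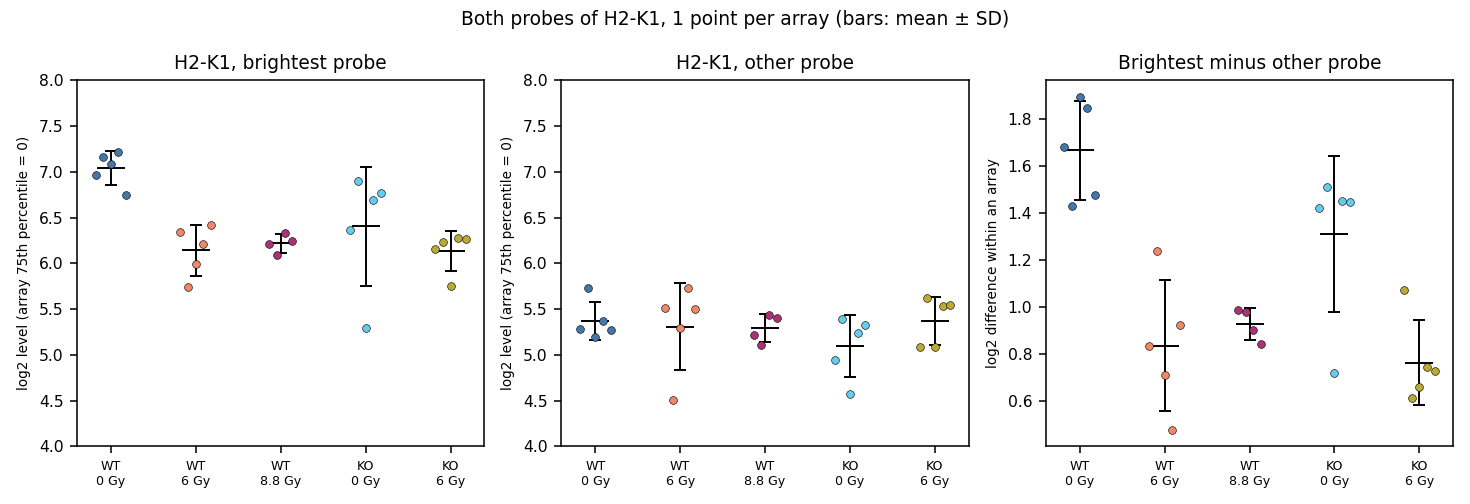
Log2 level of both H2-K1 probes and their within-array difference (vertical axes), 1 point per array by group, with mean and SD. The brightest probe drops from the wild-type sham to the irradiated groups, the other probe overlaps throughout, and the difference shrinks from 1.67 to 0.84 and 0.93 in wild type.

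H2-D1, the other classical heavy chain gene, shares with H2-K1 most of its upstream bases but showed no call. It stood at 6.00, 6.39, 6.57, 6.14 and 6.34 on wild-type sham arrays, at 6.95, 6.07, 6.49, 6.52 and 6.22 at 6 Gy, and at 6.55, 6.45, 6.55 and 6.98 at 8.8 Gy. Knockout sham arrays read 5.79, 6.35, 5.50, 6.06 and 6.33 and irradiated ones 6.48, 6.54, 5.91, 6.89 and 6.88. The groups overlapped in each comparison. The differences were 0.16 ± 0.22 at 6 Gy (limma adjusted p = 0.616), 0.34 ± 0.24 at 8.8 Gy (adjusted p = 0.341) and 0.54 ± 0.22 in the knockout (adjusted p = 0.0873). Without knockout 6 Gy replicate 3, the lowest of its group, the knockout difference was 0.70 and passed (adjusted p = 0.0281). Whether H2-D1 and H2-K1 differ in their response was not tested.

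Of 20 other class I heavy chain genes, 14 were tested. H2-T24, a nonclassical class I gene, rose in all 3 responses, by 1.14 ± 0.32 at 6 Gy (limma adjusted p = 0.0133), 1.64 ± 0.34 at 8.8 Gy (adjusted p = 0.0029) and 0.93 ± 0.32 in the knockout (adjusted p = 0.0376). H2-M3, which presents formylated peptides, fell by 1.19 at 8.8 Gy (adjusted p = 0.0444). The median difference over the 14 genes was 0.05, 0.07 and 0.43 in the 3 responses, against 0.05, 0.04 and -0.08 over all genes. Messages of close class I copies can bind the same probe, so which copy these values reflect is uncertain.

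B2m, the invariant light chain, was not called. Every 8.8 Gy array lay above every wild-type sham array, the closest at 7.42 against 7.41. It read 6.99, 6.72, 7.27, 7.41 and 6.96 on sham arrays, 7.80, 7.02, 8.03, 7.25 and 6.97 at 6 Gy, and 8.01, 7.56, 7.48 and 7.42 at 8.8 Gy. In the knockout it read 7.18, 7.13, 6.53, 7.16 and 7.21 on sham arrays and 7.51, 7.57, 7.34, 7.46 and 7.86 after 6 Gy, again with no overlap. The differences were 0.34 ± 0.22 at 6 Gy (limma adjusted p = 0.249), 0.55 ± 0.23 at 8.8 Gy (adjusted p = 0.111) and 0.51 ± 0.22 in the knockout (adjusted p = 0.101). With quantile normalisation B2m was called higher at 8.8 Gy (0.82, adjusted p = 0.0423) and in the knockout (0.90, adjusted p = 0.0131). Over 17 alternatives besides single arrays, its difference ran from -0.44 to 0.65 at 6 Gy and from -0.39 to 0.82 at 8.8 Gy. The sign turned in 1 alternative at each dose. In the knockout it ran from 0.39 to 1.09, and the sign turned in 0. Groups without overlap were seen for 1 member at 6 Gy (18.5% of all genes), 3 at 8.8 Gy (18.1%) and 1 in the knockout (15.4%). Platelet markers, whose mean level was 3.37 to 5.22 on wild-type sham arrays, reached 5.07 to 6.21 at 8.8 Gy and 5.32 to 6.24 in irradiated knockouts. In deviations from group means, B2m and these markers had r = 0.46 and rho = 0.38. Neither passed (permutation test, adjusted p = 0.232 and 0.281). The part of platelets in the B2m differences between groups was not tested.

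Neither transporter gene was called. Tap1 read -1.34, -0.09, -0.85, -0.85 and -0.82 on wild-type sham arrays and -0.88, -1.45, -0.49, 0.30 and -1.32 at 6 Gy, with means of -0.79 and -0.77. At 8.8 Gy it averaged -0.51 ± 0.20 (SD, n = 4). Knockout sham arrays read -1.71, -0.45, -2.10, -0.78 and -0.63 and irradiated ones -0.73, -0.16, -1.05, -0.19 and 0.08. Tap1 was not well above background on knockout sham replicates 1 and 3, its lowest arrays, so their levels are uncertain. The knockout groups overlapped, and with these arrays the difference was 0.72 ± 0.34 (limma adjusted p = 0.136). It was 0.48 without sham replicate 3 and 0.08 with normexp background correction. Tap2 read 2.59, 4.10, 3.19, 3.46 and 2.74 on wild-type sham arrays and 3.05, 2.51, 2.53, 2.94 and 2.42 at 6 Gy. These groups overlapped, with a difference of -0.53 ± 0.31 (limma adjusted p = 0.216). Its difference was -0.18 at 8.8 Gy and 0.10 in the knockout.

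Tapbp, the tapasin gene that bridges transporter and heavy chain, was called nowhere. It read 2.24, 2.65, 2.54, 2.47 and 2.37 on wild-type sham arrays and 3.33, 2.27, 2.38, 2.74 and 2.96 at 6 Gy, and it spanned 2.52 to 2.87 at 8.8 Gy. The differences were 0.28 ± 0.24, 0.24 ± 0.26 and, in the knockout, 0.51 ± 0.24 (limma adjusted p = 0.132). Of 11 loading partners such as chaperones and trimming enzymes, 10 were tested, and only Ganab passed in any response. Ganab, a glucosidase subunit of the endoplasmic reticulum, fell by 0.77 at 6 Gy in wild type (adjusted p = 0.0453). Of all genes 26.4%, 16.1% and 22.9% were called in the 3 responses. The median difference of the loading partners was -0.36, -0.40 and 0.20.

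**Figure D3:**
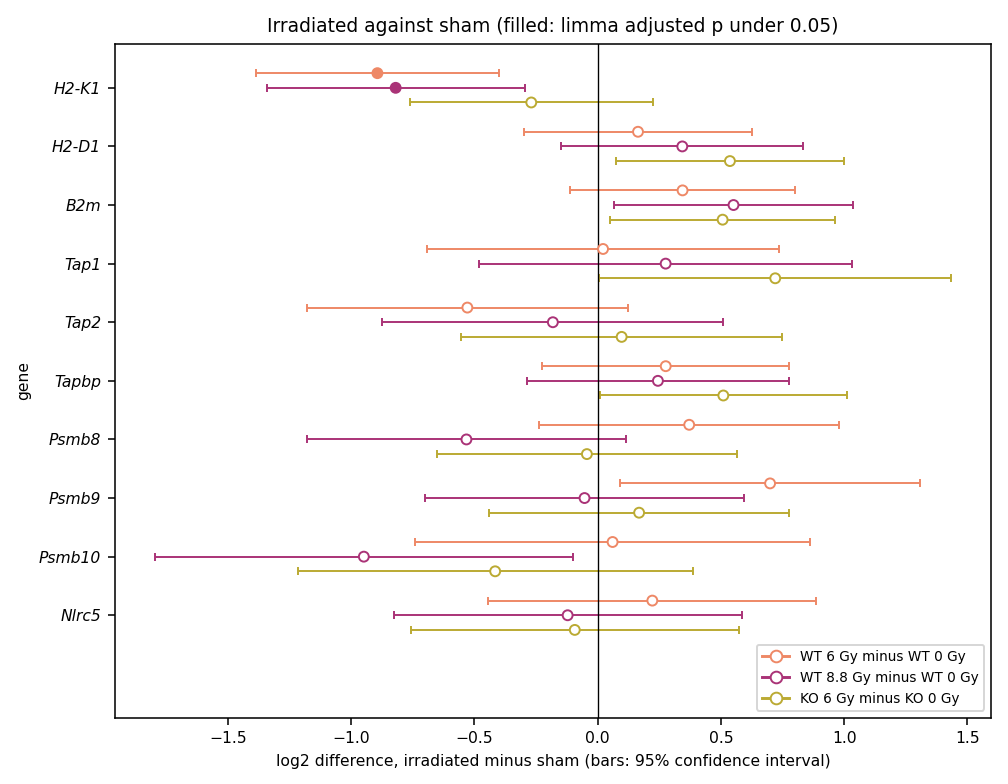
Log2 difference of each member between irradiated and sham arrays of its genotype (horizontal axis) with 95% confidence intervals, filled where limma's adjusted p was under 0.05. H2-K1 is filled at -0.89 and -0.82 in wild type, and every other point is open.

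The immunoproteasome subunits varied together from array to array, and none was called in any response. Psmb8, which supplies the chymotrypsin-like activity, read 2.75, 3.36, 3.05, 2.87 and 2.72 on wild-type sham arrays and 3.89, 2.76, 2.81, 3.47 and 3.66 at 6 Gy. Psmb9, which replaces the caspase-like subunit, read 2.31, 2.58, 2.66, 2.23 and 2.35 on sham arrays and 3.91, 2.26, 2.49, 3.51 and 3.46 at 6 Gy. Psmb10, which replaces the trypsin-like subunit, read 3.68, 4.15, 3.70, 3.75 and 3.81 on sham arrays and 4.53, 2.61, 3.11, 4.21 and 4.93 at 6 Gy. For all 3 genes, 6 Gy replicates 1, 4 and 5 lay above every wild-type sham array, and replicates 2 and 3 lay within or below the sham range. The SD of Psmb8 was 0.26 on wild-type sham, 0.51 on wild-type 6 Gy and 0.68 on knockout sham arrays. That of Psmb9 was 0.19, 0.71 and 0.56, and that of Psmb10 was 0.19, 0.98 and 0.64. Psmb9 differed by 0.70 ± 0.29 at 6 Gy and did not pass (limma adjusted p = 0.0794). Without replicate 2 the difference was 0.92 and passed (adjusted p = 0.0316), as it did with quantile normalisation (0.86, adjusted p = 0.0308) and with the mean over both Psmb9 probes (0.95, adjusted p = 0.0203). The other Psmb9 probe was well above background on 1 array only. Psmb8 differed by 0.37 ± 0.29 and Psmb10 by 0.06 ± 0.39.

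The 5 wild-type 6 Gy arrays also differed in their cell markers. Kupffer cell markers, of which 6 of 8 were tested, had mean levels of 3.06, -0.90, 1.37, 2.58 and 2.96 on replicates 1 to 5. Monocyte markers had 3.09, 1.55, 2.72, 3.0 and 2.74, and B-cell markers -0.28, -1.24, -0.80, -0.52 and -0.40. Heart muscle markers were also lower on replicates 2 and 3 than on the others. Other lists ran the opposite way, higher on replicates 2 and 3. NK-cell markers had 1.85, 2.46, 2.20, 1.63 and 1.04, and platelet markers 4.71, 5.28, 5.67, 4.31 and 3.27. Red-cell precursor, T-cell and lung epithelium markers did so too. Over all 24 arrays, in deviations from group means, Psmb10 followed the monocyte markers, as given below. No other relation of a subunit to a marker list had both adjusted p-values under 0.05. The part of any of these cells in the subunit levels was not tested.

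No subunit was called at 8.8 Gy. Psmb8 read 2.48, 2.16, 2.78 and 2.23, Psmb9 2.57, 2.11, 2.54 and 2.28, and Psmb10 2.72, 2.32, 3.36 and 3.09. Every 8.8 Gy array lay below every sham array for Psmb10, with a difference of -0.95 ± 0.41 that did not pass (limma adjusted p = 0.118). Psmb8 differed from sham by -0.53 ± 0.31 and Psmb9 by -0.05 ± 0.31. Between 8.8 Gy and 6 Gy the differences were -0.90 for Psmb8 (adjusted p = 0.164), -0.75 for Psmb9 (adjusted p = 0.215) and -1.01 for Psmb10 (adjusted p = 0.209). No gene at all was called between these doses by limma (0% of 13051), though 18.1% had an unadjusted p under 0.05. On the 2 slides that held 1 array of each dose, Psmb8 at 8.8 Gy minus 6 Gy was -1.41 and -0.65. The 8.8 Gy array behind the -0.65 is replicate 2, which is 1 of the nearly equal arrays.

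In the knockout Psmb8 read 2.28, 2.87, 1.60, 3.17 and 3.18 on sham arrays and 2.13, 3.16, 2.24, 2.68 and 2.68 after 6 Gy. Psmb9 read 1.71, 2.50, 1.51, 2.58 and 2.75 and then 2.05, 2.92, 2.11, 2.47 and 2.35. Psmb10 read 3.15, 3.55, 2.54, 3.97 and 4.11 and then 2.26, 3.45, 3.13, 3.71 and 2.68. All 3 overlapped and their differences were -0.04, 0.17 and -0.42, none of which passed. Sham replicate 3 was again the lowest of its group for each subunit.

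**Figure D4:**
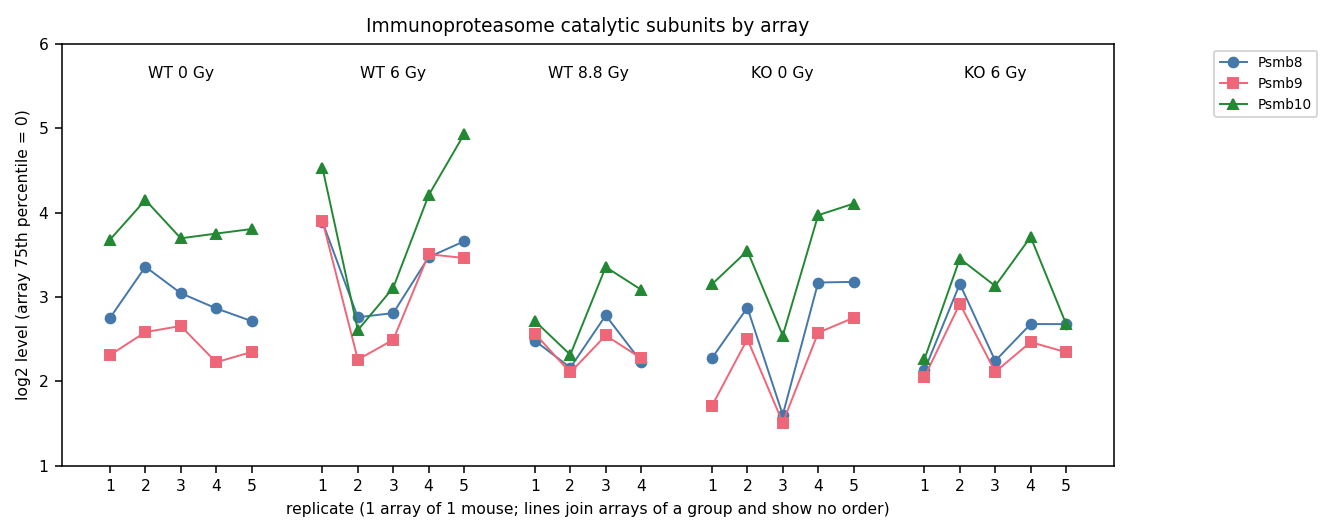
Log2 level of Psmb8, Psmb9 and Psmb10 (vertical axis) on each array, with replicates of a group side by side and joined only to show that the genes vary in step. In wild-type 6 Gy arrays replicates 1, 4 and 5 stand high for all 3 genes, at 3.46 to 4.93, and replicates 2 and 3 at 2.26 to 3.11.

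Other parts of the proteasome gave few calls. None of the 11 other core subunits tested was called in any response, where 26.4%, 16.1% and 22.9% of all genes were. Of the 3 standard catalytic subunits that the immunoproteasome replaces, Psmb5 rose by 0.60 in the knockout (limma adjusted p = 0.0485) and none passed in wild type. Among 9 activator and assembly genes, Psme3, the gene of a nuclear activator, fell by 2.01 ± 0.37 at 6 Gy in wild type (adjusted p = 0.000998) and by 1.88 ± 0.37 in the knockout (adjusted p = 0.00112). Psmf1, a proteasome inhibitor gene, fell by 1.42 at 6 Gy in wild type (adjusted p = 0.0036) and was 1.45 higher in knockout than in wild type at 6 Gy (adjusted p = 0.0386). Psmg2, an assembly chaperone gene, fell by 1.64 at 8.8 Gy (adjusted p = 0.0451).

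Nlrc5 was not called in any comparison. It read 0.66, 1.11, 1.30, 1.46 and 0.53 on wild-type sham arrays, 1.24, 0.92, 1.15, 1.92 and 0.94 at 6 Gy, and 1.69, 0.84, 0.50 and 0.54 at 8.8 Gy. Knockout sham arrays read 0.64, 1.76, 0.27, 1.46 and 1.72 and irradiated ones 0.85, 1.61, 0.45, 0.94 and 1.52. All groups overlapped, and the differences were 0.22 ± 0.32, -0.12 ± 0.34 and -0.09 ± 0.32. Its other probe, well above background on 20 of 24 arrays, differed by 1.09 at 6 Gy in wild type and did not pass (limma adjusted p = 0.0607).

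Of 27 genes that regulate class I or interferon signalling, 25 were tested. At 6 Gy in wild type 2 rose and 2 fell, at 8.8 Gy 3 rose and 2 fell, and in the knockout 6 rose and 2 fell. In either direction 26.4%, 16.1% and 22.9% of all genes were called in these comparisons. Irf7, a driver of type I interferon, rose by 2.34 ± 0.52, 2.68 ± 0.56 and 2.40 ± 0.52 in the 3 responses, and Irf8, a factor of B cells and monocytes, fell by 1.96, 1.97 and 1.45. The limma adjusted p of Irf7 was 0.0037, 0.0029 and 0.0022 and that of Irf8 at most 0.00209. Irf9, a subunit of the interferon-activated complex, rose by 0.68 and 1.11 at the 2 wild-type doses. Genes of the CCAAT-binding complex rose, namely Nfyb at 8.8 Gy (1.39) and in the knockout (1.94) and Nfya in the knockout (1.47). The kinase gene Jak1 fell by 0.81 at 6 Gy in wild type (adjusted p = 0.0427). The list medians were -0.06, -0.17 and 0.18.

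The receptors that read class I were counted too, 7 of 9 being tested. Cd8a, the class I coreceptor of cytotoxic T cells, fell by 1.95 ± 0.41 at 6 Gy, by 3.26 ± 0.43 at 8.8 Gy and by 2.93 ± 0.41 in the knockout (limma adjusted p of 0.0025 or less). Cd8b1, its partner chain, fell by 1.52 in the knockout. Pirb, an inhibitory receptor for class I on myeloid cells, rose by 0.99, 1.07 and 1.49, and Klra9, an NK receptor of the Ly49 family, rose by 1.13, 0.86 and 1.05. Klrd1, a chain of an NK receptor, fell by 1.45 at 8.8 Gy.

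No member passed the test in any comparison between genotypes. On sham arrays the level of 9 of 10 members was lower in the knockout, with a median difference of -0.33 against -0.04 over all genes. None was called, where 0.682% of all genes were. The sham groups of both genotypes shared no slide and no scan day, and members varied together, so their signs are not independent. H2-K1 differed by -0.63 ± 0.24 (limma adjusted p = 0.156), with overlapping groups, and by -0.35 without knockout sham replicate 3. At 6 Gy none was called between genotypes (1.04% of all genes). The subunits Psmb8, Psmb9 and Psmb10 differed there by -0.74, -0.75 and -0.83, knockout minus wild type, with adjusted p-values of 0.134, 0.132 and 0.199. Between the knockout at 6 Gy and wild type at 8.8 Gy, the doses of equal lethality, the members differed by -0.24 to 0.19, and limma called 0% of all genes, with 2.05% at an unadjusted p under 0.05. The nearly equal arrays stand on opposite sides of this comparison, and without both the members differed by -0.34 to 0.22. With normexp background correction 7 members were called higher in the knockout, among them H2-K1 (1.11), H2-D1 (1.25), B2m (1.07) and Tapbp (0.88), whose sign turned. The share of all genes called with that correction is not given here, so the 7 do not set the members apart. The interaction of genotype and 6 Gy called no member (6.53% of all genes). It was 0.62 ± 0.34 for H2-K1 (adjusted p = 0.251), so that a different H2-K1 response in the genotypes was not shown, with a 95% interval of -0.07 to 1.32. Without knockout sham replicate 3 it was 0.35 (adjusted p = 0.434), and with the median of each array as scale 1.45 and called (adjusted p = 0.0272). The median scale shifts all genes of an array together, and the share of all genes called with it is not given here.

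Members varied together within groups. Over 24 arrays, each member's deviation from its group mean was compared with that of each other member, 45 pairs in all. The correlation was above 0 in 44 pairs, with a median Pearson r of 0.61, and 30 pairs passed by both Pearson's r and Spearman's rho after adjustment over the 45 pairs. Psmb8 and Psmb9 had the highest, with r = 0.93, rho = 0.93, permutation p = 1e-05 and 2e-05, adjusted p = 0.00045 and 0.0009, r = 0.93 without the 2 farthest arrays. A p of 1e-05 is the smallest the permutations can give. B2m stood apart, passing with 1 other member only, Nlrc5 (r = 0.54, rho = 0.55, permutation p = 0.0077 and 0.00781, adjusted p = 0.0138 and 0.0153, r = 0.55 without the 2 farthest arrays). H2-K1 went most closely with Psmb8 (r = 0.82, rho = 0.83, permutation p = 4e-05 and 7e-05, adjusted p = 0.000675 and 0.00101, r = 0.72 without the 2 farthest arrays). All members share the scaling and quality of their array. The share of other gene pairs that would pass was not computed, so the 30 of 45 pairs do not set these members apart from other genes.

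The same deviations were set against the mean level of 12 marker lists, 120 relations. In 9 of them both adjusted p-values were under 0.05. Nlrc5 followed the T-cell markers (r = 0.83, rho = 0.83, permutation p = 0.00019 and 0.00017, adjusted p = 0.012 and 0.0112, r = 0.78 without the 2 farthest arrays). Tap2 did so too (r = 0.77, rho = 0.77, permutation p = 0.0002 and 0.00028, adjusted p = 0.012 and 0.0112, r = 0.73 without the 2 farthest arrays), and so did Tap1 (r = 0.62, rho = 0.65, permutation p = 0.00402 and 0.00302, adjusted p = 0.0452 and 0.0403, r = 0.56 without the 2 farthest arrays). Nlrc5 ran against the hepatocyte markers (r = -0.68, rho = -0.71, permutation p = 0.00113 and 0.00047, adjusted p = 0.0226 and 0.0141, r = -0.66 without the 2 farthest arrays), as did Tap2 (r = -0.70, rho = -0.68, permutation p = 0.00046 and 0.00024, adjusted p = 0.0147 and 0.0112, r = -0.63 without the 2 farthest arrays). Tapbp followed the B-cell markers (r = 0.71, rho = 0.71, permutation p = 0.00359 and 0.00231, adjusted p = 0.0452 and 0.0347, r = 0.63 without the 2 farthest arrays). Psmb10 followed the monocyte markers (r = 0.67, rho = 0.65, permutation p = 0.00148 and 0.00193, adjusted p = 0.0254 and 0.0331, r = 0.53 without the 2 farthest arrays). The remaining relations that passed were those of Nlrc5 and Tap2 with the pan-leukocyte markers. Leaving out both nearly equal arrays gave 0.83 for Nlrc5 and T cells and 0.65 for Psmb10 and monocytes. These are relations between arrays within groups, while between groups T-cell markers fell and Nlrc5 did not pass.

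**Figure D5:**
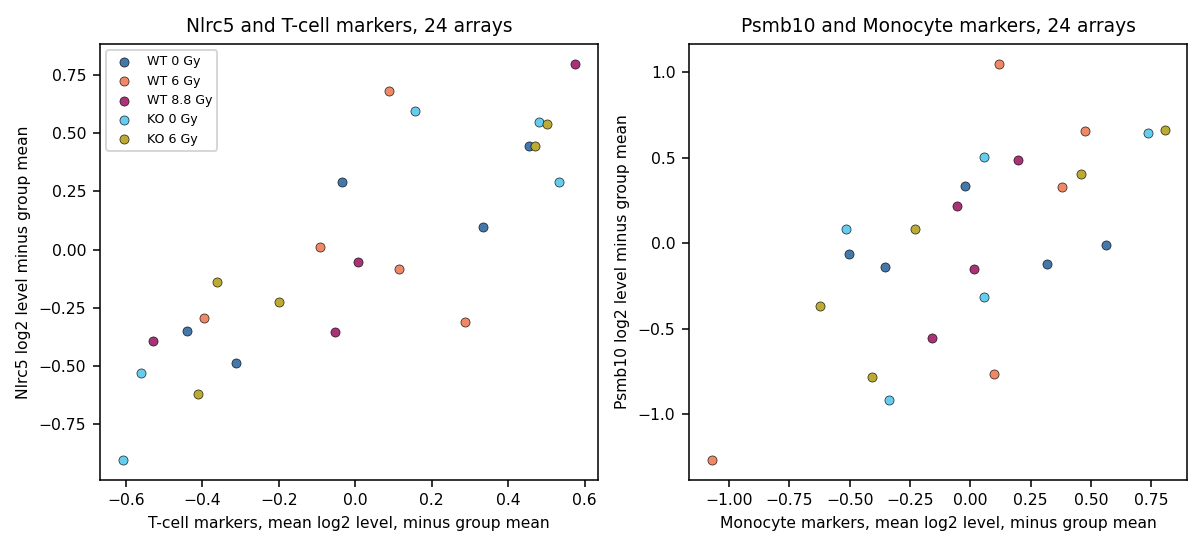
Deviation from the group mean of Nlrc5 against that of the T-cell markers (left) and of Psmb10 against that of the monocyte markers (right), log2 units, 1 point per array, coloured by group. Points run from low left to high right in both panels, with r = 0.83 and r = 0.67 over 24 arrays.

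The genes whose levels over all 24 arrays were most like the mean of the 10 members were Add3 (Pearson r = 0.90), Commd7 (0.87), Zufsp (0.86), Arhgef3 (0.86) and Lrmp (0.86). Those most like Nlrc5 were Unk (0.85), Mgst2 (0.85), Tgtp2 (0.85), Utrn (0.85) and Bclaf3 (0.83). These are the highest among all genes tested and are given as a description of these arrays.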

How the data were processed

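The files the authors deposited for each array hold linear spot intensity values. Agilent Feature Extraction 11.5.1 produced them with the background subtracted, per the file headers, which also name mm9 for the coordinates. The series-wide table that the authors deposited is in log2. For each array these equal the log2 processed signal plus 1 constant over nearly all of 10214 probes, so scale and direction are settled, while how the constants and probes were chosen is unknown. It lacks H2-D1, B2m and Tapbp and served as an alternative only.

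Controls and spots marked as outliers (9 of them members') were dropped, and saturated spots were kept. Log2 processed signals minus each array's 75th percentile were averaged over the spots of a probe. A gene was represented by its brightest probe and tested where 4 or more arrays of 1 or more groups had it well above background. Probes with a RefSeq accession were named through the RefSeq gene table. Groups were compared with limma 3.58.1 (R 4.3.3; linear model and empirical Bayes moderation) on 5 group means over 24 arrays, with Benjamini-Hochberg adjustment over 13051 genes in each of 8 comparisons and a threshold of 0.05. It was checked on simulated data. All tests were two-sided. Correlations used 100000 permutations within groups, and figures were drawn with matplotlib 3.10.9.

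All 10 members are named in every comparison. From each pathway list at most 4 genes are named per comparison, those called with the largest absolute difference. The members, lists and markers were chosen with earlier results of these data known. Alternatives covered background correction, scaling, the dim-probe filter, the probe rule, slide and scan day as blocks, replicate number as a block, the samples in the fit, hepatocyte markers as a covariate, the deposited table and leaving out arrays. The numbers in the titles were not used to pair samples.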

Additional observations from a re-analysis of the deposited data

Results flagged for a closer look

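The single values below were picked out because 1 array lay far from the others of its group by Dixon's criterion, which chance meets in about 1 of 20 groups. It was met in 7 of 70 groups checked. In arrays labelled knockout 6 Gy, replicate 3 was low for H2-K1 (5.75) and for Tap2 (2.01). Knockout sham replicate 3 was low for B2m (6.53) and for the excess of the brightest over the other H2-K1 probe (0.720). That excess was high on the array labelled knockout 6 Gy replicate 1 (1.07), which nearly equals wild-type 8.8 Gy replicate 2, where it was 0.978. Wild-type sham replicate 2 was high for Psmb10 (4.15). Wild-type sham replicate 1 was high for the excess of the brightest over the other Nlrc5 probe (3.87), whose other probe is dim.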

How the results depend on the processing

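The count of members called, 1 at 6 Gy in wild type, 1 at 8.8 Gy and 0 elsewhere, depended on several choices. With normexp background correction it was 0 at 6 Gy, 4 at 8.8 Gy (H2-K1, Tap2, Psmb8 and Psmb10, all lower), 2 in the knockout (H2-D1 and B2m, higher), 7 higher between knockout 6 Gy and wild-type 8.8 Gy and 3 lower between the wild-type doses. In the knockout 6 Gy against wild-type 8.8 Gy comparison it turned H2-K1 to 1.11, H2-D1 to 1.25, B2m to 1.07 and Tapbp to 0.88, each called. With the median of each array as scale, which moves the median of all genes at 6 Gy to -0.74, 2 members were called lower at 6 Gy (H2-K1 and Tap2), 1 higher between genotypes at 6 Gy (B2m) and 5 in the interaction (H2-K1, H2-D1, B2m, Tap1 and Tap2). Quantile normalisation called 2 in the knockout (H2-D1 and B2m), and in place of H2-K1 it called Psmb9 higher at 6 Gy in wild type and B2m higher at 8.8 Gy. The mean of all probes also called Psmb9 in place of H2-K1 at 6 Gy. At 8.8 Gy the count was 0 with no filter on dim probes, with the mean of all probes, with a fixed block for slide or for scan day, with slide as a random block, without both nearly equal arrays and without both arrays whose Parp1 level goes against the label. It was 2 with only the groups compared (H2-K1 and Psmb10) or with the hepatocyte covariate (H2-K1 and B2m). At 6 Gy it was 0 with a fixed block for slide or for scan day and 2 with the hepatocyte covariate (H2-K1 and Tap2), which also gave 2 in the knockout (B2m and Tap1). Without knockout sham replicate 3 and knockout 6 Gy replicate 1, an alternative chosen after seeing the data, the knockout count was 1 (H2-K1). Leaving out 1 array at a time gave 1 to 2 at 6 Gy, 0 to 1 at 8.8 Gy, 0 to 1 in the knockout and 0 in the other 5 comparisons. Of 1920 single-member values with 1 array left out, 6 lost a call, 3 gained one and 0 were called with the opposite sign. The shares of all genes called under these alternatives are not given here, so their counts do not set the members apart.

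With the replicate block, H2-K1 was -0.89 at 6 Gy, still called, and -0.79 at 8.8 Gy, where the count of members called was 0 (limma adjusted p = 0.0525). The labels do not say whether the numbers pair the samples. Deviations of same-numbered arrays of different groups correlated above 0.1 in 13 of 46 pairs, with a median of -0.05. For differently numbered arrays it was 75 of 184 pairs, with a median of -0.001. Same-numbered arrays were thus not more alike, which does not settle whether they share a litter or a day. Where a call was lost the cause was not tested. The precision of these values is limited by the 4 or 5 arrays in a group, and Tap1 and the other probe of Nlrc5 lie near background on some arrays.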
